A study of Mus musculus with 35 samples.

Results

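The genes described here are 10 genes of the connective tissue mast cell: the proteases Cpa3, Cma1, Mcpt4, Tpsb2 and Tpsab1, the histamine-forming enzyme Hdc, the IgE receptor genes Ms4a2 and Fcer1a, and the receptor genes Mrgprb2 and Mrgprb1. They were taken by symbol from a table of 36106 genes, and all 10 were found. RNA had been sequenced from whole skin of C57BL/6J mice, an inbred strain, all female and 10 weeks old. The left flank of the radiated animals had received 25 Gy at 3.6 Gy per min over 420 seconds, after which the treated skin was shaved. The 35 samples form 9 groups: sham skin without radiation (n = 3), and, at weeks 1, 2, 3 and 4, radiated skin (n = 4 per week) and skin labelled control (n = 4 per week). No group carried a transgene or an added drug, and the design text gives 19 mice for the 35 samples. The body site of the control biopsies and the week of the sham biopsies are not stated. Within a week, radiated and control samples that carry the same number are taken to come from 1 mouse, which is inferred from the number of mice. The main fits held no term for the mouse and so did not use this pairing. Fits with the replicate number as a block are given as alternatives.

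Mast cells of the skin sit in the dermis near vessels and nerves and store their products in granules, which they release within moments of activation. The granules hold chymases, tryptases and carboxypeptidase A3 bound to the proteoglycan serglycin, together with histamine. Release is triggered through the high-affinity IgE receptor, whose alpha chain (Fcer1a) binds IgE and whose beta chain (Ms4a2) amplifies the signal, or without IgE through Mrgprb2. Mrgprb2 is the mouse counterpart of human MRGPRX2, a G protein-coupled receptor for basic peptides such as substance P and for several drugs that cause injection-site reactions. GATA transcription factors and Mitf, together with signals through the receptor Kit, maintain the mast cell programme.

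The members lie on 7 chromosomes of GRCm38. Cma1 (chromosome 14, 55941451 to 55944675) and Mcpt4 (chromosome 14, 56059629 to 56062313) belong to the chymase locus. Tpsab1 (chromosome 17, 25343245 to 25345562) and Tpsb2 (chromosome 17, 25366305 to 25369098) are neighbours in the tryptase locus. Mrgprb1 (chromosome 7, 48444113 to 48456342) and Mrgprb2 (chromosome 7, 48550965 to 48558086) lie in the Mrgpr cluster, with Mrgprb3 (chromosome 7, 48642803 to 48643811) on the far side of Mrgprb2. Cpa3 lies on chromosome 3 (20215620 to 20242181), Hdc on chromosome 2 (126593667 to 126619299), Ms4a2 on chromosome 19 (11615523 to 11623719) and Fcer1a on chromosome 1 (173221284 to 173227214). All members are protein coding. Of the 31-base words in the transcripts of a member, the share also found in other genes was 12.2% for Mcpt4 and 10.6% for Cma1, so the counts of both could include reads of near-identical copies. It was 3.96% or less for the other members, and 0.293% for Mrgprb2.

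Promoter sequences are shown for Cpa3 and Ms4a2, as a protease and a receptor subunit of mast cells, and for Mrgprb1 and Mrgprb2, neighbours in the Mrgpr cluster whose levels moved in opposite directions. Each line is the 250 bases upstream of the RefSeq start on GRCm38.p6, 5′ to 3′ along the transcribed minus strand, and capitals mark GATA words (the letters AGATAA and, as other forms of the word, AGATAG as well as TGATAA together with TGATAG, on either strand). The windows are chr3:20242182-20242431 for Cpa3, chr19:11623720-11623969 for Ms4a2, chr7:48456343-48456592 for Mrgprb1 and chr7:48558087-48558336 for Mrgprb2.
Cpa3: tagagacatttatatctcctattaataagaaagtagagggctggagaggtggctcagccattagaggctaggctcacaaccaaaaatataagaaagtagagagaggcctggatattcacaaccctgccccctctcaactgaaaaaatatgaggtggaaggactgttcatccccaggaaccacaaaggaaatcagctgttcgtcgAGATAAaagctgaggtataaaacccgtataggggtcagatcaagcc
Ms4a2: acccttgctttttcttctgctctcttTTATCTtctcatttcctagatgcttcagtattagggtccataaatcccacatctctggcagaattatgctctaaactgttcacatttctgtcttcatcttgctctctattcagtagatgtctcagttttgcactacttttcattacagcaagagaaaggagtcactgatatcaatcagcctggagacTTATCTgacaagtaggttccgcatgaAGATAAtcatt
Mrgprb1: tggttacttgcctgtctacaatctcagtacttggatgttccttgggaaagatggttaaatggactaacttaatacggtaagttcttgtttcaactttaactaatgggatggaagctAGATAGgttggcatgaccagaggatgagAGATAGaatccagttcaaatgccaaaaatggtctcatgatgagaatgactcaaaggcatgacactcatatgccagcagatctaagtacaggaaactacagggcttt
Mrgprb2: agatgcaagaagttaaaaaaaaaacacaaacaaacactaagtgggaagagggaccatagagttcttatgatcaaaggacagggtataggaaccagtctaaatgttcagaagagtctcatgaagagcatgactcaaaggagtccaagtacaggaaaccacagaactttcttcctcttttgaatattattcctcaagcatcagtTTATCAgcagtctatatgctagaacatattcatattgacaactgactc
RefSeq promoter entries were matched for 8 of the 10 members, all but Tpsb2 and Tpsab1. A GATA word stood in the window of 8 of these 8, and in 8610 of 32536 windows of the same length over all genes (26.5%). Cpa3 had 1 such word, Ms4a2 3, Mrgprb1 2 and Mrgprb2 1. An E-box of the letters CATGTG or CACGTG, on either strand, stood in 1 of the 8 windows, that of Fcer1a, and in 17.7% of all windows. The windows of Mrgprb1 and Mrgprb2 shared a stretch of 26 aligned columns with 24 identical bases. These matches describe letters and say nothing of whether a factor was bound.

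Sample totals ran from 17362853 to 28487885 estimated counts. Levels are given as CPM, a gene's count when its library is brought to 1000000 counts, after scaling of libraries with TMM factors, and differences are log2 fold changes from edgeR's quasi-likelihood test, with p-values adjusted over all tested genes by the Benjamini-Hochberg method and called below 0.05. Markers of keratinocytes (Krt5, Krt14, Krt1, Krt10, Trp63) were present in every sample, with a summed level between 5332 and 23192 CPM. In bulk samples, fewer or more mast cells and less or more RNA of a gene per cell cannot be told apart. Intervals and floors given for low counts cover counting error only, since molecules were not counted by molecular identifiers and reads can be copies of one another.

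Against control skin, Cpa3, Cma1, Mcpt4 and Tpsb2 rose in radiated skin of weeks 3 and 4, Mrgprb1, Tpsab1 and Fcer1a rose in week 4, Hdc rose in weeks 3 and 4, Ms4a2 did not pass in any week, and Mrgprb2 fell. In week 3, edgeR called 6 of the 9 members tested, 5 higher and 1 lower in radiated skin, against 27.2% of all tested genes (13.6% higher and 13.6% lower). In week 4 it called 9 of 10, 8 higher and 1 lower, against 48.4% of all tested genes (24.2% higher and 24.2% lower). Tpsab1 and Fcer1a, with low counts, came above the filter on low counts only through the groups where they were high, so their calls bear on no share. Of the other 8 members, which were tested in every comparison, 6 were called in week 3, of which 5 rose, and 7 were called in week 4, of which 6 rose. Their median log2 fold change was 1.19 in week 3 and 1.45 in week 4, beside 0.08 and 0.02 over all tested genes. The samples of radiated and control skin did not overlap for 5 of 10 members in week 2, 5 of 10 in week 3 and 9 of 10 in week 4, against 6.42%, 29.3% and 42.7% of all genes. In weeks 1 and 2, 0 of the 8 members tested passed, beside 0% and 0.00577% of all tested genes, so that few genes of any kind were called there.

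Some markers of other skin cells rose in the same weeks as the proteases. Of all tested genes 13.6% rose and 13.6% fell in week 3, and 24.2% rose and 24.2% fell in week 4. The week 3 counts of markers given below are near these shares. Of 6 fibroblast markers, 1 rose and 1 fell in week 3 and 5 rose in week 4, with a summed level of 9306 to 17519 CPM in radiated skin against 1672 to 8951 CPM in control skin in week 3, and of 22851 to 36631 CPM against 1754 to 3721 CPM in week 4. Of 4 endothelium markers, 1 rose in week 3 and 4 rose in week 4, with a summed level of 193 to 444 CPM against 172 to 209 CPM and of 372 to 484 CPM against 165 to 280 CPM. Of 6 hair follicle markers, 4 rose and 1 fell in week 4, where the summed level ran from 11.5 to 2254 CPM in radiated skin and from 32.1 to 39.8 CPM in control skin. For 5 T cell markers the summed level ran from 18.8 to 59 CPM in radiated skin against 12.9 to 23.3 CPM in control skin in week 3. In week 4 it ran from 41 to 54.6 CPM against 24.2 to 28.2 CPM. The part of these cells in the levels of the mast cell genes was not tested.

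**Figure D1:**
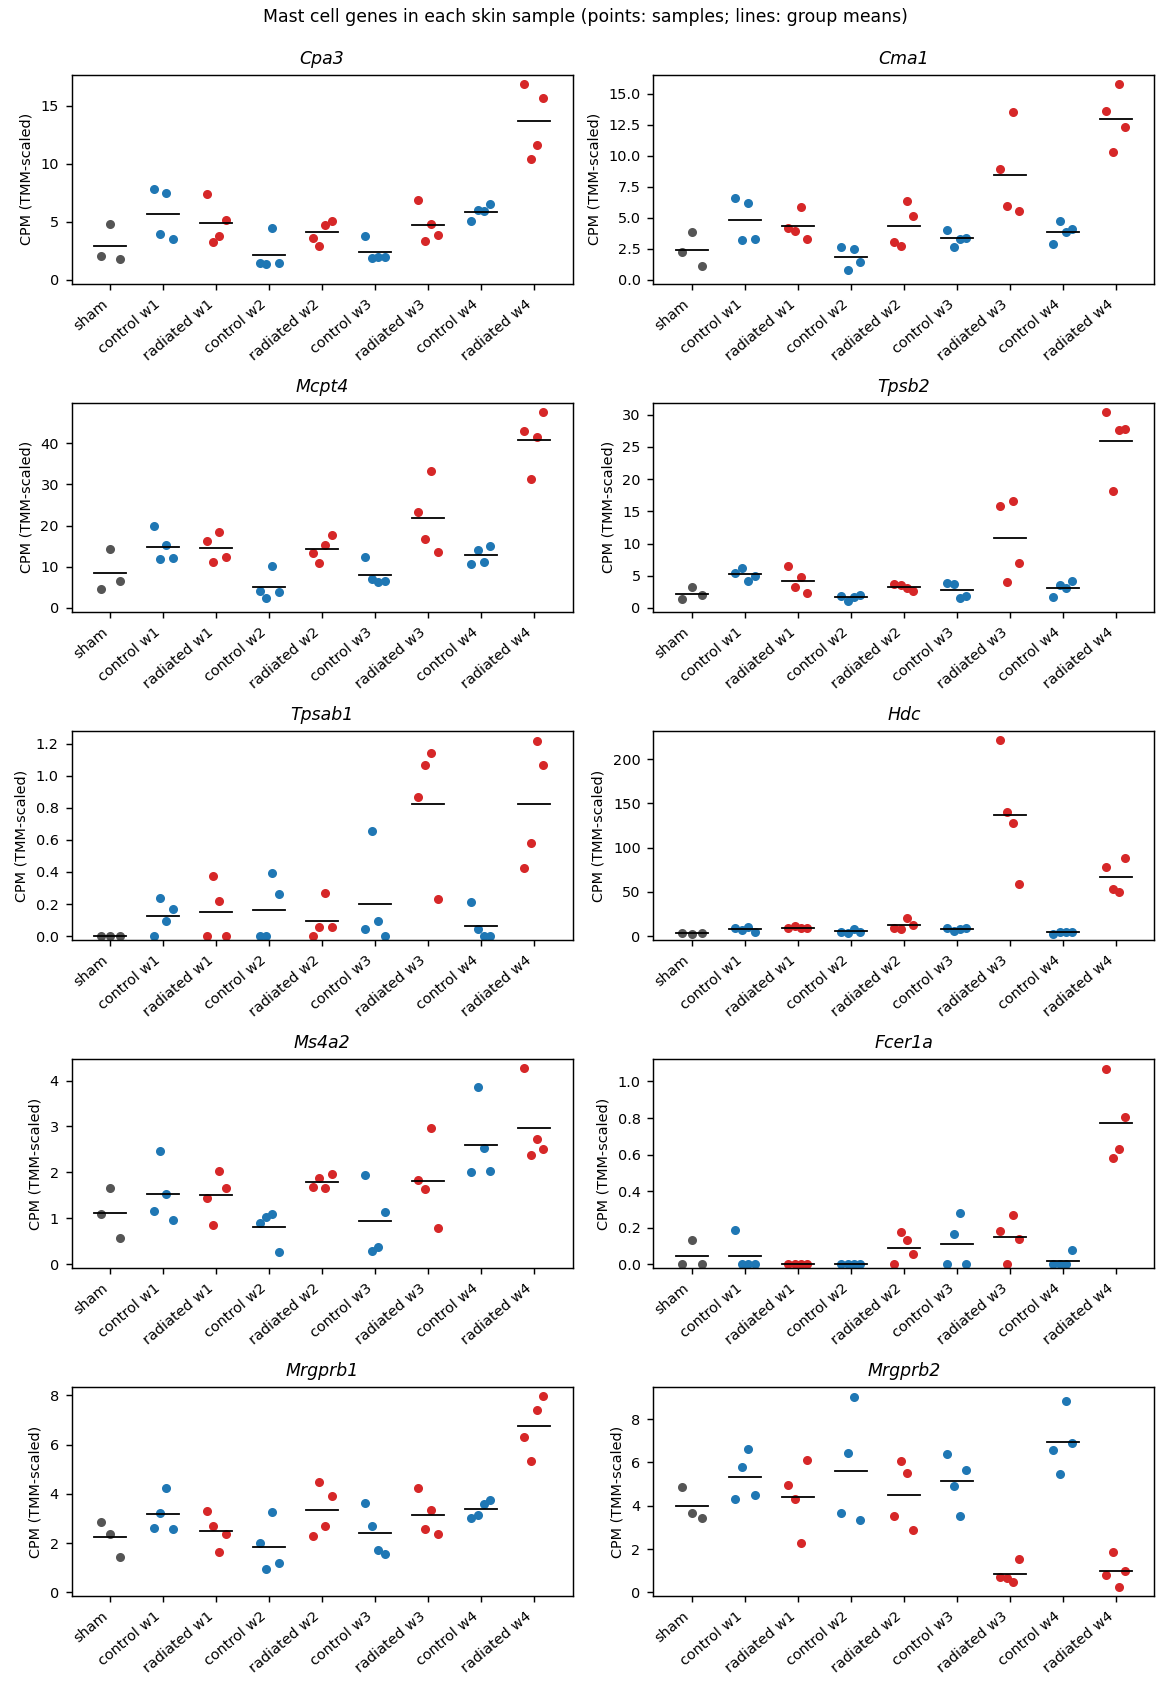
Level of each of the 10 genes in every sample (vertical axes: CPM on TMM-scaled libraries, each panel with its own scale; horizontal axis: the 9 groups, w1 to w4 for weeks 1 to 4). Points are samples and lines are group means. Mcpt4 is highest in radiated skin of week 4 (31.4 to 47.6 CPM), and Mrgprb2 is lowest in radiated skin of weeks 3 and 4 (0.251 to 1.86 CPM).

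Cpa3 encodes carboxypeptidase A3, an exopeptidase of mast cell granules. In week 4 its level was 16.9, 10.4, 11.6 and 15.7 CPM in radiated skin and 5.03, 6.02, 5.89 and 6.57 CPM in control skin. The lowest radiated sample lay above the highest control sample, and the log2 fold change was 1.22 (SE 0.18, edgeR adjusted p 0.000455). In week 3 the level was 6.86, 3.36, 4.84 and 3.87 CPM in radiated skin and 3.74, 1.84, 2.0 and 2.0 CPM in control skin. These groups overlapped, with radiated skin higher in 4 of 4 pairs, and the log2 fold change was 1.01 (SE 0.33, edgeR adjusted p 0.048). This call stood close to the threshold: it was lost without a filter on low counts (adjusted p 0.0627), with DESeq2 size factors (adjusted p 0.0509), and without any 1 of 5 libraries, namely radiated replicate 1 or 3 (adjusted p 0.127 and 0.0776) and control replicate 2, 3 or 4 (adjusted p 0.112, 0.114 and 0.114). In the order of group means, radiated skin of week 4 (13.7 ± 3.1 CPM, SD, n = 4) stood apart from control skin of week 4 (5.88 ± 0.639 CPM), next in the order. Below that, no neighbours differed by more than their spread, down to control skin of week 2 (2.17 ± 1.52 CPM). Sham skin had 2.08, 4.81 and 1.76 CPM.

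Cma1 and Mcpt4 encode the chymases of skin mast cells. Cma1 in week 4 was at 13.6, 10.3, 15.8 and 12.3 CPM in radiated skin and at 2.86, 4.73, 3.89 and 4.07 CPM in control skin. The groups were fully separate, with a log2 fold change of 1.74 (SE 0.19, edgeR adjusted p 6.88e-05). In week 3 Cma1 was at 8.96, 5.97, 13.5 and 5.53 CPM in radiated skin and at 4.05, 2.66, 3.3 and 3.37 CPM in control skin. Radiated replicate 3 was the highest, all radiated samples lay above all controls, and the log2 fold change was 1.37 (SE 0.32, edgeR adjusted p 0.0122). Mcpt4 in week 4 was at 43.0, 31.4, 41.5 and 47.6 CPM in radiated skin and at 10.6, 14.2, 11.2 and 15.0 CPM in control skin. Its log2 fold change was 1.68 (SE 0.17, edgeR adjusted p 3.49e-05), again with no overlap. In week 3 Mcpt4 was at 23.4, 16.7, 33.3 and 13.6 CPM in radiated skin and at 12.5, 7.09, 6.23 and 6.62 CPM in control skin. The lowest radiated sample, replicate 4, lay just above the highest control sample, replicate 1, and the log2 fold change was 1.45 (SE 0.33, edgeR adjusted p 0.0115).

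Tpsb2, a tryptase that forms the main trypsin-like activity of mouse mast cell granules, had a larger fold change in week 4 than Cpa3, Cma1 and Mcpt4. Its level was then 30.4, 18.2, 27.6 and 27.7 CPM in radiated skin and 1.75, 3.49, 3.03 and 4.15 CPM in control skin. Every radiated sample was above every control sample, with a log2 fold change of 3.06 (SE 0.26, edgeR adjusted p 1.68e-05). In week 3 radiated skin had 15.8, 4.06, 16.6 and 6.95 CPM, and control skin had 3.92, 3.73, 1.53 and 1.88 CPM. Radiated replicate 2 was barely above the highest control sample, and the log2 fold change was 2.00 (SE 0.50, edgeR adjusted p 0.0171). Without control replicate 4 the adjusted p was 0.0514. Tpsab1 encodes a second tryptase, whose protein the C57BL/6 strain is known to lack. Its counts were low: 10, 15, 29 and 24 in radiated skin of week 4, 4, 1, 0 and 0 in control skin of week 4, and 0 in all 3 sham samples. The week 4 groups did not overlap, with 78 counts against 5, a depth-corrected ratio of 14.9 (exact 95% interval 6.1 to 47) and an adjusted p of 0.00384 in edgeR. Tpsab1 passed the filter in week 4 only through radiated skin; with every gene above 0 counts kept in the test the adjusted p was 0.00735. In week 3 Tpsab1 had 19, 23, 30 and 5 counts in radiated skin and a highest control count of 16, and did not pass (log2 fold change 1.99, SE 0.91, edgeR adjusted p 0.131). Without control replicate 2, the library with those 16 counts, the log2 fold change was 3.98 (edgeR adjusted p 0.019).

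Hdc encodes histidine decarboxylase, which forms histamine in mast cells and is also known from basophils and neutrophils. In week 3 its level was 221, 140, 128 and 59.3 CPM in radiated skin and 8.96, 5.49, 7.95 and 8.96 CPM in control skin. Radiated replicate 4 was the lowest of its group and still above every control sample, and the log2 fold change was 4.16 (SE 0.39, edgeR adjusted p 0.000659). In week 4 the level was 77.7, 52.7, 50.2 and 87.7 CPM in radiated skin and 2.86, 4.6, 5.13 and 4.65 CPM in control skin. The log2 fold change was 3.96 (SE 0.25, edgeR adjusted p 3.59e-06), with no overlap. The neutrophil markers S100a8, S100a9, Cxcr2, Csf3r and Retnlg rose in both weeks, 5 of 6 markers, and Ly6g was below the filter. Of all tested genes 13.6% rose in week 3 and 24.2% in week 4. The summed level of the 6 ran from 100 to 749 CPM in radiated skin of week 3 and from 9.13 to 14.3 CPM in control skin, and from 205 to 436 CPM against 10.2 to 14.4 CPM in week 4. Ly6g was at 0 in every control sample of week 4. The part of such cells in the level of Hdc was not tested.

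Ms4a2 encodes the beta chain of the IgE receptor. In week 4 its level was 4.27, 2.37, 2.72 and 2.5 CPM in radiated skin and 2.01, 3.85, 2.52 and 2.04 CPM in control skin. These samples overlapped widely, and the log2 fold change of 0.19 (SE 0.29) did not pass (edgeR adjusted p 0.602). In week 3 it was at 1.83, 1.63, 2.97 and 0.783 CPM in radiated skin and at 1.94, 0.287, 0.372 and 1.14 CPM in control skin, with a log2 fold change of 0.99 (SE 0.63, edgeR adjusted p 0.267). Fcer1a, the chain that binds IgE, was near 0 in most samples. Its counts were 25, 15, 15 and 18 in radiated skin of week 4, 0, 0, 0 and 2 in control skin of week 4, and 0, 3 and 0 in sham skin. The week 4 groups were separate, with 73 counts against 2, a depth-corrected ratio of 34.8 (exact 95% interval 9.28 to 292) and an adjusted p of 0.000431 in edgeR. Fcer1a too passed the filter only through radiated skin of week 4; with every gene above 0 counts kept in the test the adjusted p was 0.00093. In radiated skin of week 3 the counts were 4, 0, 7 and 3, and Fcer1a was then below the filter.

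Basophils also carry the IgE receptor. Of their 6 markers (Mcpt8, Prss34, Cd200r3, Ccr3, Itga2, Il4), Cd200r3 rose in week 3, Cd200r3 and Ccr3 rose and Il4 fell in week 4, and Mcpt8 and Prss34 were below the filter in both. Of all tested genes 13.6% rose in week 3, and 24.2% rose and 24.2% fell in week 4. The summed level ran from 31 to 53.4 CPM in radiated skin of week 3 against 36.2 to 45.5 CPM in control skin, and from 43.4 to 71.7 CPM against 47.3 to 56.2 CPM in week 4. Mcpt8, the basophil protease, had 0 counts in all sham and control samples. It had 3, 5, 22 and 3 counts in radiated skin of week 3 and 11, 9, 5 and 3 in radiated skin of week 4. The part of basophils in the counts of Fcer1a was not tested. The mucosal mast cell proteases Mcpt1, Mcpt2 and Mcpt9 were below the filter in weeks 3 and 4, and their summed level did not exceed 1.2 CPM in any sample.

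**Figure D2:**
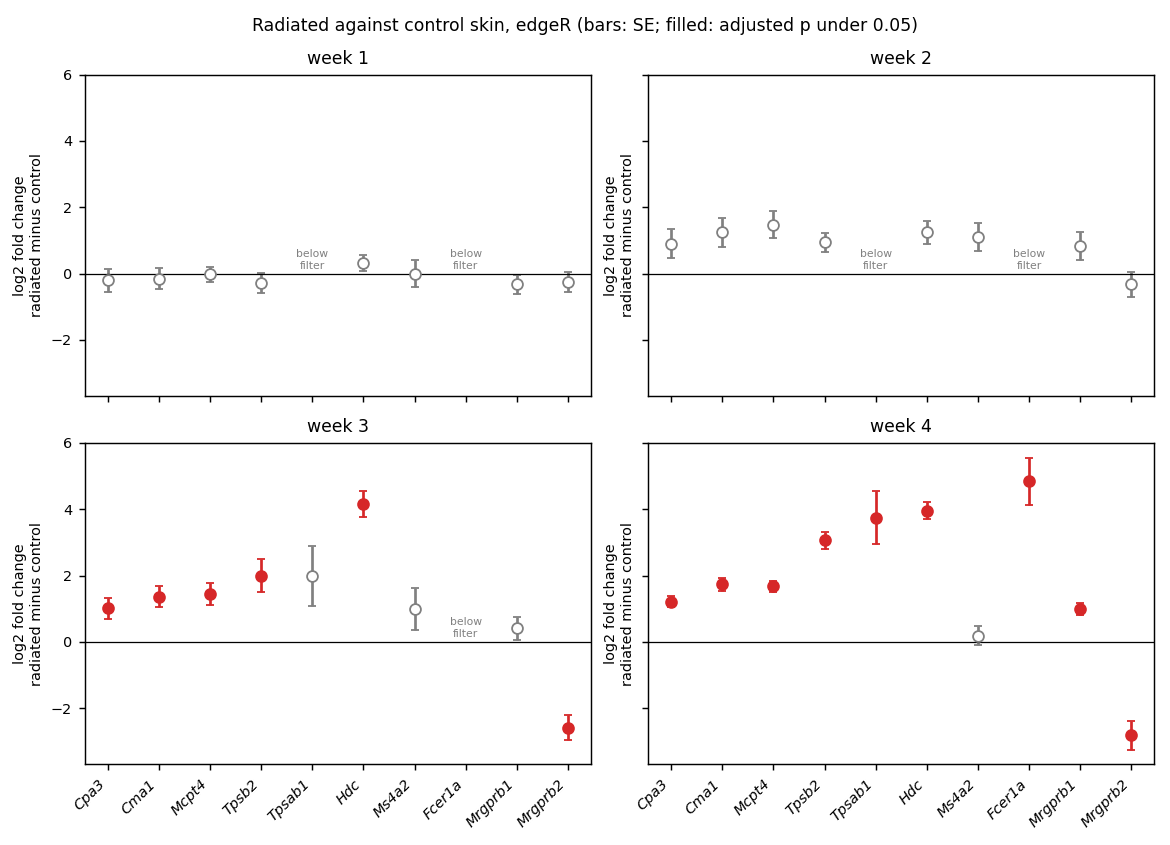
Log2 fold change of radiated against control skin (vertical axis) for each member (horizontal axis) in weeks 1 to 4, from edgeR. Bars are 1 SE, filled points passed at an adjusted p under 0.05, and members below the filter on low counts are marked. In week 4 Ms4a2 (0.19) is the open point and Mrgprb2 (-2.81) the filled point below 0.

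Mrgprb2 fell in the weeks in which the proteases rose. In week 3 its level was 0.686, 0.653, 0.495 and 1.52 CPM in radiated skin and 6.39, 4.91, 3.53 and 5.65 CPM in control skin. In week 4 it was 0.811, 1.86, 0.251 and 0.982 CPM in radiated skin and 6.56, 5.48, 8.84 and 6.88 CPM in control skin. In both weeks the highest radiated sample lay below the lowest control sample. The log2 fold change was -2.58 (SE 0.39, edgeR adjusted p 0.00237) in week 3 and -2.81 (SE 0.44, edgeR adjusted p 0.000565) in week 4. In weeks 1 and 2 radiated skin had 2.26 to 6.12 CPM and 2.89 to 6.08 CPM, inside or near the range of control skin (4.33 to 6.63 CPM and 3.34 to 9.04 CPM), and the gene did not pass. In week 2 the radiated sample was the lower in 4 of 4 pairs: 3.54 against 3.66, 6.08 against 6.45, 5.51 against 9.04 and 2.89 against 3.34 CPM. In the order of group means Mrgprb2 ran from control skin of week 4 (6.94 ± 1.4 CPM, SD, n = 4) down to sham skin (3.98 ± 0.769 CPM, SD, n = 3) with no neighbours apart by more than their spread. Radiated skin of week 4 (0.977 ± 0.668 CPM) and of week 3 (0.839 ± 0.462 CPM) stood apart below these, and did not differ from each other by more than their spread.

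Mrgprb1, the neighbouring family member, did not share this fall. Its level in week 4 was 6.32, 5.32, 7.42 and 7.99 CPM in radiated skin and 3.02, 3.14, 3.59 and 3.77 CPM in control skin. The groups were separate, and the log2 fold change was 1.00 (SE 0.18, edgeR adjusted p 0.00123). In week 3 the radiated samples (4.25, 2.57, 3.35 and 2.35 CPM) overlapped the control samples (3.65, 2.7, 1.72 and 1.54 CPM), and the log2 fold change of 0.41 (SE 0.35) did not pass (edgeR adjusted p 0.406). Mrgprb3, the gene on the other side of Mrgprb2, fell further than Mrgprb2. It was at 0.183, 2.15, 0.229 and 2.63 CPM in radiated skin of week 3, against 32.0, 19.8, 26.3 and 21.6 CPM in control skin, and at 0.854, 2.68, 0.503 and 0.134 CPM against 29.1, 32.9, 39.1 and 39.4 CPM in week 4. Its log2 fold changes were -4.25 (SE 0.72, edgeR adjusted p 0.00359) and -5.03 (SE 0.57, adjusted p 7.99e-05).

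Of the 14 other Mrgpr genes in the list, 5 were tested in each of weeks 3 and 4 and 9 were below the filter. In week 3 Mrgpra2b rose (log2 fold change 5.37, SE 1.07, edgeR adjusted p 0.0067) and Mrgprb3 fell, and in week 4 Mrgpra2b (5.32, SE 1.02, adjusted p 0.00195) and Mas1 (1.35, SE 0.46, adjusted p 0.0349) rose and Mrgprb3 fell. The mean level of Mrgpra2b was 3.12 CPM in radiated skin of week 3 and 1.96 CPM in that of week 4, against 0.0769 and 0.0442 CPM in control skin. Mrgpra2b thus came above the filter on low counts only through radiated skin. Its calls bear on no share, and its fold changes rest on control levels near 0. Mrgprb4 and Mrgprb5 were at 0 in every sham, control and radiated group but may be present below the floor of 3 counts. Markers of other cell types also differed between radiated and control skin. Of 6 skeletal muscle markers, 5 fell in week 3 and 5 in week 4, with a summed level of 2466 to 7334 CPM in radiated skin against 14443 to 29244 CPM in control skin in week 3, and of 880 to 2066 CPM against 1139 to 17432 CPM in week 4. The summed level of muscle markers was also apart in week 1 (6751 to 19514 CPM in radiated skin against 22379 to 35225 CPM in control skin) and in week 2 (8373 to 17233 CPM against 24538 to 43661 CPM), though 0 of the 6 passed in either week. Of 4 Schwann cell markers, 2 fell in week 3 and 3 in week 4, with a summed level of 118 to 190 CPM in radiated skin against 227 to 328 CPM in control skin and of 114 to 143 CPM against 202 to 255 CPM. Of 5 keratinocyte markers, 1 rose and 1 fell in week 3 and 1 rose and 3 fell in week 4, with a summed level of 5332 to 23192 CPM against 11809 to 16112 CPM and of 11066 to 15497 CPM against 16825 to 19054 CPM. Of all tested genes 13.6% rose and 13.6% fell in week 3, and 24.2% rose and 24.2% fell in week 4. The week 3 counts of keratinocyte markers and Mrgpr genes are near these shares. So are the 1 keratinocyte marker that rose and the 1 Mrgpr gene that fell in week 4. Krt5, a keratin of the basal epidermis, had a correlation of 0.68 with Mrgprb2 over the 35 samples and of 0.35 within groups. The part of muscle, Schwann cells and keratinocytes in the level of Mrgprb2 was not tested.

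Ratios of 2 members were also taken within each library, as differences of log2(CPM + 0.5), for 7 pairs of genes in 4 weeks, and compared with an exact two-sided permutation test. Of the 28 tests, 12 gave the smallest p that 4 against 4 samples allow (0.0286), which came to 0.0667 after Benjamini-Hochberg adjustment over the 28, so that 0 passed. This test treats same-numbered samples as independent. An exact sign-flip test over the 4 pairs gave a p of 0.125 for each of the 12, the smallest that 4 pairs allow. For Mrgprb2 relative to Cpa3, radiated minus control skin was -0.11 in week 1, with overlapping groups. The difference was -1.14, -2.95 and -3.56 in weeks 2, 3 and 4, without overlap in each (exact permutation p 0.0286, adjusted 0.0667). In week 4 this log2 ratio ran from -4.02 to -2.21 in radiated skin and from -0.12 to 0.55 in control skin. Relative to Ms4a2, which did not pass, Mrgprb2 differed by -2.85 in week 3 and -2.60 in week 4, also without overlap. The size of these differences depended on the amount added to the CPM, since Mrgprb2 was low in radiated skin. With 2 CPM added, Mrgprb2 relative to Ms4a2 differed by -1.70 and -1.71 in weeks 3 and 4, and relative to Cpa3 by -1.93 and -2.57. With 0.1 CPM added, Mrgprb2 relative to Cpa3 differed by -3.52 in week 3.

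Among the other pairs, Hdc relative to Cpa3 was higher in radiated skin by 3.07 in week 3 and 2.67 in week 4, with no overlap. Tpsb2 relative to Cpa3 differed by 0.82 in week 3, where the groups overlapped, and by 1.77 in week 4, where they did not. Ms4a2 relative to Cpa3 differed by -0.10 in week 3 and by -0.97 in week 4, when radiated skin lay between -2.43 and -1.86 and control skin between -1.48 and -0.58. Mcpt4 relative to Cpa3 differed by 0.66 in week 2 and by 0.51 in week 4, both without overlap (exact permutation p 0.0286, adjusted 0.0667), and by 0.49 in week 3, where the groups overlapped. Cma1 relative to Cpa3 differed by 0.49 in week 4, with overlap. The 7 pairs share genes and are not independent of each other.

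**Figure D3:**
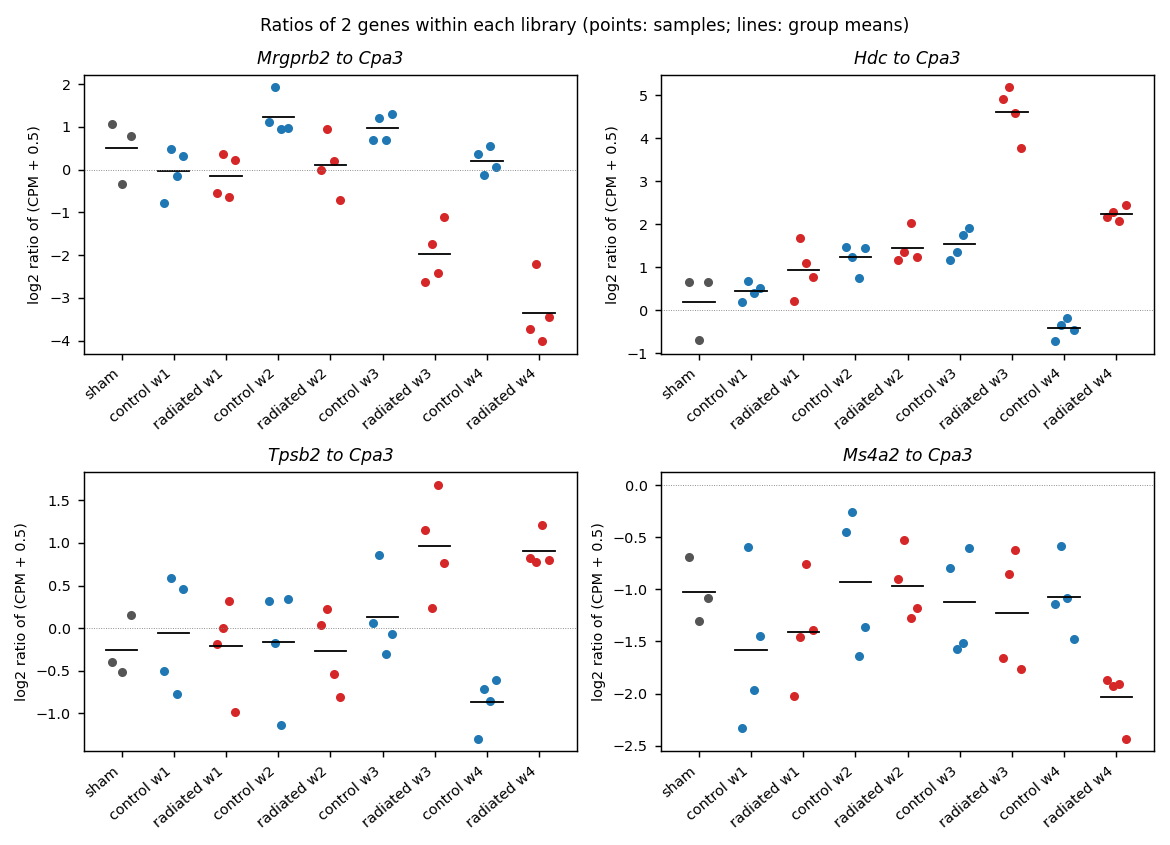
Log2 ratio of 2 genes within each library, as log2(CPM + 0.5) differences (vertical axes), by group (horizontal axis). Points are samples and lines are group means. Mrgprb2 to Cpa3 lies between -4.02 and -2.21 in radiated skin of week 4, and Ms4a2 to Cpa3 between -2.43 and -1.86.

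In week 2 Cpa3, Cma1, Mcpt4, Tpsb2, Hdc and Ms4a2 were higher in radiated skin in 4 of 4 pairs but did not pass. The groups were separate for Cma1, Mcpt4, Tpsb2, Hdc and Ms4a2, and Mrgprb2 was lower in 4 of 4 pairs. Tpsab1 was below the filter and was higher in 1 of 4 pairs (0, 1, 6 and 1 counts in radiated skin and 0, 0, 9 and 5 in control skin). The log2 fold change was 0.90 for Cpa3, 1.24 for Cma1, 1.47 for Mcpt4, 0.94 for Tpsb2, 1.24 for Hdc, 1.11 for Ms4a2, 0.84 for Mrgprb1 and -0.33 for Mrgprb2. Of these 8 tested members, 5 had an unadjusted p under 0.05, as did 2388 of all 17345 tested genes (13.8%). After adjustment 1 of the 17345 genes passed (0.00577%). The summed level of 7 macrophage markers, 0 of which passed, was also apart in week 2, at 498 to 2178 CPM in radiated skin against 189 to 484 CPM in control skin. The summed level of 6 neutrophil markers overlapped, at 10.3 to 53.6 CPM in radiated skin against 5.94 to 11.8 CPM in control skin. Csf3r among them was apart, at 3.04 to 21.1 CPM against 0.645 to 2.27 CPM. The part of such cells in the week 2 levels was not tested. Mcpt4 was at 13.4, 10.9, 15.3 and 17.7 CPM in radiated skin and at 4.04, 2.32, 10.3 and 3.91 CPM in control skin, where replicate 3 was high. Control replicate 3 was likewise high for Cpa3, at 4.45 CPM against 1.33 to 1.46 CPM in the other 3. With the replicate number as a block, 2 members passed, Mcpt4 (log2 fold change 1.65, edgeR adjusted p 0.0332) and Hdc (1.18, adjusted p 0.0215), against 3.7% of all genes. Other fits passed Mcpt4 and Hdc as well: 1 fit of all 35 samples gave 2 members and the Wald test of DESeq2 gave 3, with Tpsb2 in addition, against 2.75% and 4.23% of all genes. In week 1 the log2 fold changes lay between -0.33 and 0.31, and 0 members passed in edgeR (0 with an unadjusted p under 0.05) and in DESeq2, which passed 2.37% of all genes.

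Whether the difference of radiated and control skin changed over the weeks was tested by fitting the 32 radiated and control samples together. There 6 of the 10 members passed, against 15.6% of the genes tested. Fcer1a, called here, and Tpsab1 came above the filter on low counts only through groups where they were high. These 2 bear on no share. Of the 8 members tested in every comparison, Hdc, Tpsb2, Mrgprb2, Cma1 and Mcpt4 passed. The adjusted p in edgeR was 3.99e-06 for Hdc, 0.000342 for Tpsb2, 0.00148 for Mrgprb2, 0.025 for Cma1, 0.0254 for Mcpt4 and 0.0397 for Fcer1a. It was 0.116 for Mrgprb1, 0.124 for Cpa3, 0.225 for Tpsab1 and 0.46 for Ms4a2. With the block, which passed 15.8% of the genes, Fcer1a no longer passed (edgeR adjusted p 0.144) and Cpa3 did (adjusted p 0.0406). Leaving out 1 replicate number in all groups ended the call of Fcer1a in each case (edgeR adjusted p 0.0847 to 0.252), that of Cma1 without replicate 1, 3 or 4 (0.183, 0.124 and 0.0917), that of Mcpt4 without replicate 1, 2 or 4 (0.161, 0.0739 and 0.121) and that of Mrgprb2 without replicate 1 (0.0552). Hdc and Tpsb2 passed in each of these fits. Weeks are different mice, so this is a comparison between animals.

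Sham skin gives a second reference, shared by all weeks. Against it, radiated skin of weeks 1 and 2 differed in Hdc among the 8 members tested. Hdc was at 3.53, 2.77 and 3.05 CPM in sham skin, at 8.67, 11.5, 8.66 and 9.18 CPM in radiated skin of week 1 (log2 fold change 1.60, edgeR adjusted p 0.0161) and at 8.71, 8.18, 20.9 and 12.6 CPM in week 2 (2.01, adjusted p 0.0228). All radiated samples were above all sham samples, and 1.75% and 5.06% of all tested genes passed in these comparisons. Each call was lost without sham replicate 2 or 3 (adjusted p 0.0808 and 0.0814 in week 1, 0.0918 and 0.114 in week 2). The week 1 call was also lost without radiated replicate 3 or 4 (adjusted p 0.0835 and 0.0579).

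In week 3, 5 of 9 tested members passed against sham skin, beside 18.2% of all genes: Hdc, Tpsb2, Cma1 and Tpsab1 higher and Mrgprb2 lower. The log2 fold changes were 5.50 for Hdc (edgeR adjusted p 0.00421), 2.32 for Tpsb2 (0.0243 adjusted), 1.84 for Cma1 (0.034 adjusted) and -2.20 for Mrgprb2 (0.0135 adjusted). Tpsab1 was at 0 in all sham libraries and at least 18.3-fold higher than the floor of 3 counts over the sham group. Tpsab1 was tested only through radiated skin, and of the 8 members tested in every comparison 4 passed. Cpa3 (log2 fold change 0.75, SE 0.44, edgeR adjusted p 0.267) and Mcpt4 (1.40, SE 0.46, adjusted p 0.0685) did not pass against sham skin in week 3, and their samples overlapped. Mcpt4 stood close to the threshold. It passed in 1 fit of all 35 samples (edgeR adjusted p 0.00748), in the DESeq2 Wald test (0.0152) and with total-count scaling in edgeR (0.0439). These passed 32.3%, 26.7% and 18.3% of all genes. Mcpt4 also passed without sham replicate 2 or radiated replicate 4 (edgeR adjusted p 0.0427 and 0.0467). The call of Cma1 was lost without radiated replicate 1 or 3 or sham replicate 1 or 3 (adjusted p 0.0639, 0.0614, 0.0939 and 0.0846 in edgeR), and Tpsb2 without any 1 of sham replicates 1, 2 and 3 (adjusted p 0.0783, 0.056 and 0.0809). In week 4 all 10 members passed, 9 higher and Mrgprb2 lower, beside 26.7% of all genes (15.2% higher and 11.5% lower). The log2 fold changes there were 4.47 for Hdc, 3.58 for Tpsb2, 2.45 for Cma1, 2.31 for Mcpt4, 2.28 for Cpa3, 1.63 for Mrgprb1 and 1.45 for Ms4a2. Tpsab1 was at least 17.7-fold higher than the same floor, and Fcer1a had 73 counts against 3, a depth-corrected ratio of 16.6 (exact 95% interval 5.46 to 82.3). Mrgprb2 was lower by a log2 fold change of -1.97 (SE 0.52, edgeR adjusted p 0.0229). Tpsab1 and Fcer1a were again tested only through radiated skin, and the other 8 all passed. Mrgprb2 did not pass without radiated replicate 1 or 4 or without sham replicate 1 or 2 (adjusted p 0.0637, 0.0576, 0.0644 and 0.0515 in edgeR). Ms4a2 did not pass without radiated replicate 1 or 4 or without sham replicate 1 or 3 (adjusted p 0.0841, 0.0537, 0.0766 and 0.0593 in edgeR).

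Against sham skin, control skin had few members past the threshold. Hdc was higher in control skin of week 1 (9.07, 6.65, 9.97 and 5.17 CPM, log2 fold change 1.30, edgeR adjusted p 0.0414) and of week 3 (1.31, adjusted p 0.0177), beside 4.92% and 11.4% of all genes. The week 1 call was lost without control replicate 2, 3 or 4 (edgeR adjusted p 0.0913, 0.114 and 0.0774). It was also lost without sham replicate 2 or 3 (0.0948 and 0.114) and with total-count scaling (0.057). The week 3 call was lost without sham replicate 2 or 3 (edgeR adjusted p 0.0586 and 0.0546). In weeks 2 and 4, 0 of the 8 members tested passed in edgeR, beside 2.44% and 3.65% of all genes. At an unadjusted p under 0.05 there were 1 and 3 of the 8 members, beside 21.1% and 22% of all genes. Mrgprb2 in control skin of week 4 had a log2 fold change of 0.79 against sham skin (edgeR adjusted p 0.0985). The sham group is the same 3 libraries in each of these comparisons.

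Genes of the wider mast cell list rose and fell. Of 24 other mast cell genes, 20 were tested in week 3 and 21 in week 4: 7 rose and 5 fell in week 3, where 13.6% of all genes rose and 13.6% fell, and 10 rose and 5 fell in week 4, where 24.2% rose and 24.2% fell. The 5 that fell in week 4 are near that share. Kit, the receptor for stem cell factor, rose in week 3 (log2 fold change 1.48, SE 0.33, edgeR adjusted p 0.0113) and in week 4 (1.59, SE 0.18, adjusted p 7.53e-05). Its level was 29.4, 24.1, 34.7 and 29.8 CPM in radiated skin of week 4 and 13.4, 9.16, 8.54 and 8.27 CPM in control skin, without overlap. Sham skin had 15.7 to 34.5 CPM of Kit, which overlapped radiated skin of week 3 (14.6 to 27.8 CPM) and of week 4, so the rise holds against control skin. Kit is also made by melanocytes, and 4 of 5 melanocyte markers rose in week 4 and 0 of 5 in week 3, with a summed level of 27.4 to 51.3 CPM against 14.6 to 17 CPM in week 4. Their part in the level of Kit was not tested. Srgn, the granule proteoglycan serglycin that other blood cells make too, rose by a log2 fold change of 2.95 (SE 0.36) in week 3 and 2.91 (SE 0.17) in week 4. Il1rl1, the receptor for interleukin 33, rose by 3.89 (SE 0.37) and 4.98 (SE 0.31).

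The genes of this list that fell were Hpgds, Ptgs1, Maob and Slc6a4 in both weeks, Smpx in week 3 and Mitf in week 4. Hpgds, the synthase of prostaglandin D, had log2 fold changes of -0.83 (SE 0.21, edgeR adjusted p 0.0177) and -0.52 (SE 0.14, adjusted p 0.0111) in weeks 3 and 4. Sham skin had 26.1 to 41.1 CPM of Hpgds, the range of radiated skin (23.7 to 43.7 and 30.2 to 37.3 CPM), and control skin stood higher (47.8 to 70.9 and 39.1 to 62.8 CPM). Ptgs1, a cyclooxygenase, had -1.27 in both weeks (adjusted p 0.0213 and 4.42e-05 in edgeR). Maob, a monoamine oxidase, had -1.70 and -1.43, and Slc6a4, the serotonin transporter, had -2.36 and -2.70. Sham skin overlapped radiated skin for Ptgs1 in both weeks (54.2 to 87.6 CPM) and for Maob in week 4 (9.19 to 19.1 against 7.27 to 11.1 CPM). It lay above radiated skin for Maob in week 3 (6.68 to 8.86 CPM) and for Slc6a4 (8.84 to 17.6 CPM against 3.46 to 5.76 CPM in week 4). Alox5ap, a gene of leukotriene synthesis, was at 1.87 in week 3 (edgeR adjusted p 0.0508) and rose by 2.32 in week 4 (SE 0.30, edgeR adjusted p 0.000163). Slc18a2, the vesicle transporter that loads amines into granules, was at -0.01 in week 3 (edgeR adjusted p 0.985) and rose by 0.64 in week 4 (adjusted p 0.00799). Gata2, a factor of mast cell identity, was at 0.90 in week 3 (edgeR adjusted p 0.145) and rose by 0.57 in week 4 (adjusted p 0.0245). Mitf was at -0.23 (edgeR adjusted p 0.356) and fell by 0.35 in week 4 (adjusted p 0.039), a call that was lost with the block (adjusted p 0.0935). All of these genes are also made by other cells of the skin or blood.

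Downstream of the IgE receptor, 10 of 15 signalling genes rose and 1 fell in week 3 (13.6% and 13.6% of all genes), and 10 rose and 3 fell in week 4 (24.2% and 24.2% of all genes). The common gamma chain Fcer1g rose by a log2 fold change of 2.66 (SE 0.69, edgeR adjusted p 0.0201) and 2.90 (SE 0.29, adjusted p 3.68e-05). The kinases Lyn (1.92 and 2.70) and Syk (1.92 and 2.30) rose in both weeks, as did Vav1 (2.21 and 3.01). Stim1, a calcium sensor of the endoplasmic reticulum that muscle also makes, fell (-1.27 and -1.20). These genes are shared with other blood cells, and 3 of 7 macrophage markers rose in week 3 and 7 of 7 in week 4, with a summed level of 1054 to 2648 CPM against 367 to 1172 CPM and of 1355 to 1951 CPM against 206 to 337 CPM. Their part was not tested.

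Of 15 genes for signals that act on mast cells, 8 were tested in week 3, of which 4 rose (13.6% of all genes rose), and 9 in week 4, of which 8 rose (24.2% of all genes) and 1, Il4, fell. Il33, an alarmin of keratinocytes and stromal cells, was at 133, 103, 170 and 81.8 CPM in radiated skin of week 3 and at 25.3, 34.7, 21.1 and 15.2 CPM in control skin. The groups were separate, with a log2 fold change of 2.37 (SE 0.30, edgeR adjusted p 0.00144), and in week 4 it was 1.42 (SE 0.20, adjusted p 0.000266). Kitl, the stem cell factor gene, was at -0.35 in week 3 (edgeR adjusted p 0.318) and rose by 0.40 in week 4 (adjusted p 0.0229). Tslp, a cytokine gene of the epidermis, rose by 1.59 in week 4 (edgeR adjusted p 0.0336). Among 14 genes for histamine receptors, histamine breakdown and mast cell products, 10 were tested in each week: 4 rose and 1 fell in week 3, and 4 rose and 2 fell in week 4, the last near the 24.2% of all genes that fell then. Hrh2, a histamine receptor, rose by 2.01 (edgeR adjusted p 0.00467) and 1.21 (adjusted p 0.00111), and Hnmt, which methylates histamine, fell by 1.07 in week 4 (adjusted p 0.0078), when radiated skin had 1.8 to 3.59 CPM, control skin 4.19 to 7.83 CPM and sham skin 1.03 to 3.55 CPM. F2rl1, a receptor that tryptase cleaves, fell in both weeks (-1.94 and -1.09). Of 12 neighbours of Cma1 and Mcpt4 among the chymase and granzyme genes, 2 were tested, and Gzmb, a granzyme of cytotoxic lymphocytes, rose (3.19 and 3.45).

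The likeness of expression patterns was described by the Pearson correlation of log2 CPM over the 35 samples, among 16405 genes that averaged 1 CPM or more, and again after the mean of each of the 9 groups was taken off. The samples share mice and groups, so these values describe and are not tests. For Cpa3, Mcpt4 stood first (0.91, and 0.81 within groups), Mrgprb1 at rank 4 (0.83 and 0.58) and Cma1 at rank 5 (0.82 and 0.63) of all genes. The genes outside the 10 members with the highest values for Cpa3 were Colec12 (0.86), Aebp1 (0.85), Gxylt2 and Pkd2 (0.81 each), Dkk3 and Pcdhga3 (0.80 each), and Lhfp and Ephb2 (0.79 each). Within groups these 8 lay between 0.35 and 0.67.

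For Mrgprb2 the highest values were those of Dlg2 and Cfap57 (0.95 each), Rpl22 and Utrn (0.94 each), and Rab3b, Abca5, Pak3 and Paip2b (0.93 each), with 0.57 to 0.74 within groups. Mrgprb3 stood at 0.92 and at 0.54 within groups. With the other members Mrgprb2 had -0.39 (Cpa3), -0.39 (Mrgprb1), -0.75 (Tpsb2) and -0.83 (Hdc) over all samples, and 0.18, 0.19, -0.23 and 0.03 within groups. Hdc had a value of 0.78 with Cma1, 0.77 with Tpsb2, 0.70 with Mcpt4 and 0.52 with Cpa3, and of 0.53, 0.14, 0.44 and 0.53 with them within groups. It had 0.98 with Srgn (0.87 within groups) and 0.96 with the neutrophil receptor gene Csf3r (0.76 within groups), these last genes being chosen after their values were seen.

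**Figure D4:**
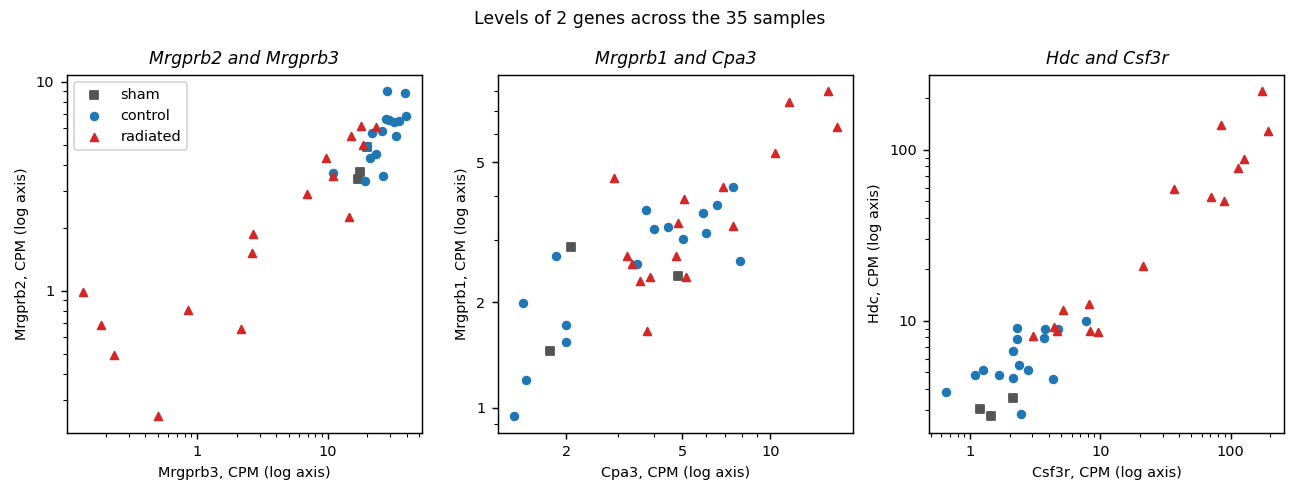
Level of 1 gene against another in the 35 samples (both axes in CPM, log axes): Mrgprb2 against Mrgprb3, Mrgprb1 against Cpa3, and Hdc against Csf3r. Each point is a sample, with its shape and colour giving sham, control or radiated skin. Radiated samples of weeks 3 and 4 form the low end of the left panel, where Mrgprb2 lies between 0.251 and 1.86 CPM.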

How the data were processed

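Whole-skin RNA of 35 samples was measured by bulk sequencing. Each deposited value is an estimated count of a gene; per the submitters' processing notes, reads were trimmed with Trim Galore 0.6.7 and quantified with kallisto 0.46.2 on mm10. Per the labels' protocols RNA was extracted with an RNeasy kit, and the transcriptome release and the step from transcripts to genes are not given in the sources used here. Such estimates split reads between similar transcripts, and between 29.5% and 32.5% of a sample's values were not whole. The counts had not been scaled by the authors, with totals of 17362853 to 28487885. They were rounded here. No 2 libraries held identical values among 595 pairs.

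Members and gene lists were chosen with earlier results of these data known. Groups were fitted 2 at a time with edgeR 4.0.16 in R 4.3.3 (filterByExpr, TMM factors, quasi-likelihood F test, Benjamini-Hochberg adjustment over all tested genes, threshold 0.05), without a replicate term, and the 4 weeks in 1 model of 32 samples. The SE is the log2 fold change divided by the square root of F. Ratios within a library used log2(CPM + 0.5) and exact permutation tests in SciPy 1.17.1. Low counts were compared with exact 95% intervals, with a floor of 3 counts. Likeness used log2 CPM with a prior count of 2. Named genes were the members, list genes past the threshold in week 3 or 4, Kit, Kitl, Il33, Gata2, Mitf and Fcer1g, and the 8 genes most like Cpa3 and Mrgprb2. Other list and marker genes were also named where a list was spelled out or a gene lay below the filter. Gp49a and Mcptl of the lists were not found in the table. Positions are those of GENCODE M21 on GRCm38, which held 35866 of the 36106 identifiers, and promoters come from RefSeq on GRCm38.p6.

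Within each week, pairs of radiated and control skin follow the mouse numbers inferred from the labels, and sham mice are other animals. Correlations across genes were taken on log2 CPM after the mean of each group was taken off. Their mean for same-numbered samples was 0.07, 0.17, 0.05 and -0.02 in weeks 1 to 4. For other numbers it was -0.02, -0.06, -0.02 and 0.01. In week 4 same-numbered samples were not the more alike, and these values do not establish the pairing. Where nothing says that samples of a group came from separate animals, p-values measure only the spread between these samples. Alternatives were DESeq2 1.42.0, DESeq2 size factors, total-count scaling, no filter on low counts, 1 fit of all samples, the replicate block, other pseudocounts and leaving out each library.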

Additional observations from a re-analysis of the deposited data

Results flagged for a closer look

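Samples were compared within 76 groups of 4, and in 5 of them 1 sample stood far from the other 3, where chance alone gives about 1 in 20 groups. Cpa3 was at 4.45 CPM in replicate 3 of control skin of week 2, with 1.33 to 1.46 CPM in the others. It was at 3.74 CPM in replicate 1 of control skin of week 3, with 1.84 to 2 CPM in the others. In that same library Mcpt4 was at 12.5 CPM, with 6.23 to 7.09 CPM in the others. Tpsab1 was at 0.655 CPM in replicate 2 of control skin of week 3, with 0 to 0.093 CPM in the others. Fcer1a was at 0.186 CPM in replicate 1 of control skin of week 1 and at 0 in the others.

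By the interaction test of edgeR, the radiated-minus-control difference was not the same in all weeks for Hdc (adjusted p 3.99e-06), Tpsb2 (0.000342), Mrgprb2 (0.00148), Cma1 (0.025), Mcpt4 (0.0254) and Fcer1a (0.0397). The log2 fold change of Mrgprb2 was -0.26, -0.33, -2.58 and -2.81 in weeks 1 to 4, and that of Hdc was 0.31, 1.24, 4.16 and 3.96.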

How the results depend on the processing

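The alternatives gave 849 fold changes: of all members in radiated against control skin and in radiated against sham skin of weeks 3 and 4, of Hdc in the other comparisons, and of Mrgprb2 in radiated against sham skin of weeks 1 and 2 and control against sham skin of week 4. Of these, 778 kept their direction and their side of the threshold, 45 lost and 14 gained the call, and 12 turned direction, where a turn is any change of sign. The turned ones belonged to small differences. In radiated against control skin of week 1, Ms4a2 (-0.01) was 0.04 with the replicate block, 0.12 with total-count scaling and -0.19 to 0.31 when 1 library was left out. There Mcpt4 (-0.02) was 0.11 with total-count scaling and -0.15 to 0.15 when 1 library was left out, and Cma1 (-0.15) was -0.34 to 0.04. Mrgprb2 in radiated against sham skin of week 1 (0.14) was -0.12 with the replicate block and -0.06 to 0.36 when 1 library was left out (-0.06 without radiated replicate 4), and Ms4a2 in radiated against control skin of week 4 (0.19) was -0.04 to 0.46 when 1 library was left out (-0.04 without radiated replicate 1). Of 90 interaction tests 76 kept their side, and 301 of 308 ratios moved by less than the spread, the other 7 with another pseudocount: 5 ratios of Mrgprb2, and Hdc and Tpsb2 relative to Cpa3 in week 4 (2.45 and 1.48 with 2 CPM).

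For radiated against control skin of week 2, 2 members passed with the replicate block, 2 in 1 fit of all samples and 3 with the DESeq2 Wald test, against 0. Sham samples share only a number with the others, not a mouse, so the block pairs nothing there. With it the radiated members that passed against sham skin went from 1 to 0 in week 1, from 1 to 0 in week 2, from 5 to 3 in week 3 and from 10 to 8 in week 4 (0.691%, 2.76%, 16.5% and 17.2% of all genes), and control skin of weeks 1 and 3 went from 1 to 0 each (0% and 2.66%). For control skin of week 1 total-count scaling gave 0 and the DESeq2 Wald test 2, beside 4.64% and 16.6% of all genes, and for that of week 4 the DESeq2 Wald test gave 1, beside 10.3%, against 0. Leaving out 1 library gave 4 to 6 members in radiated against control skin of week 3 and 9 in week 4, beside 17.9% to 28.3% and 41.8% to 47.3% of all genes. Against sham skin it gave 0 to 1 in radiated skin of weeks 1 and 2 (0.00557% to 2.88% and 0.583% to 7.94% of all genes), 3 to 6 in week 3 (6.07% to 22%) and 8 to 9 in week 4 (19.1% to 24.5%). In control skin against sham skin it gave 0 to 1 in weeks 1, 3 and 4 (0% to 9.84%, 3.46% to 13.3% and 0% to 9.26%). The 6 members of the interaction test, which include Fcer1a, became 2 to 4 without 1 replicate number, beside 4.97% to 9.2% of all genes. The cause was not tested, other than that such fits hold fewer samples.

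The block changed no call in radiated against control skin of weeks 1, 3 and 4. Total-count scaling shifted the median log2 fold change of radiated against control skin by 0.14, 0.06, 0.24 and 0.09 in weeks 1 to 4, and turned Mcpt4 and Ms4a2 in week 1 and no other member in these comparisons. Tpsab1 and Fcer1a were below the filter in weeks 1 and 2. For Tpsab1 in week 2, 8 counts in radiated skin against 14 gave a depth-corrected ratio of 0.615 (exact 95% interval 0.224 to 1.57).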
